A study of Arabidopsis thaliana with 4 samples.

Results

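ZFP3 is a C2H2 zinc finger protein of Arabidopsis thaliana, and the comparison described here is between germinating seedlings that overexpress it (ZFP3ox) and wild-type Columbia seedlings (Col-0, WT), both without abscisic acid (ABA). It takes 2 of the 4 samples of the series, 1 of each genotype, chosen by their genotype and treatment labels. Both were plated as seeds on 5 µM estradiol and harvested at 36 h. The other 2 samples were ZFP3ox and WT on 5 µM estradiol with 2.5 µM ABA. They were harvested at 84 h so that the radicle had reached the same stage. Estradiol was therefore present in every sample, WT included. The samples with ABA serve here mainly to see the same genes in other plants. They also count in the filter on low values, in the bins by level and in a fit over both treatments. The labels give neither the promoter of the ZFP3 construct nor the number of lines and seedlings behind a sample. Ribosomal RNA was depleted and 50-base reads were made on a SOLiD instrument.

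ABA holds seeds and young seedlings back, while light and gibberellin push them on. C2H2 zinc finger proteins of the ZFP3 kind have a single finger with the QALGGH motif and a repression motif at the C terminus, and bind DNA. In a seedling whose radicle has just emerged, stored oil is turned into sugar, the root begins to make hairs, cell walls are loosened by enzymes such as the xyloglucan endotransglucosylases (XTH), and chloroplast genes are switched on by light through factors such as HY5.

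The authors deposited 2 columns of values for each sample, called column set 1 and column set 2 here. Whether the sets are separate cultures, libraries or sequencing runs is not stated, and the 2 columns of a sample therefore stand for 1 replicate. No p-value or standard error can be given for the genotype difference without ABA, and differences have no replicate check other than the agreement of the sets. Values of set 1 were RPKM (reads per kilobase of exon, scaled to library size). Values of set 2 were RPM (reads per mega reads, M, with no length term), because 100% of the values up to 10 were whole multiples of 1 step per column, for short and long genes alike. That step gave 2.53 Mreads in the listed genes for ZFP3ox and 3.46 Mreads for WT in set 2. The set 2 values were scaled to larger totals, 9.50 Mreads for ZFP3ox and 14.1 Mreads for WT. The feature AT3G43990 alone held 28.7% of the summed set 2 values in ZFP3ox and 18.1% in WT. Its part in the set 2 ratios was not tested. In set 1 the low values gave about 3.02 Mreads for ZFP3ox and 4.12 Mreads for WT. Levels are therefore compared between genes in set 1 only, and genotypes are compared within a set.

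Of 23932 features, 22646 had a value of at least 1 in both columns of any of the 4 samples and were kept. Ratios are log2 of (value + 1) in ZFP3ox over the same in WT, and a gene is described as higher or lower in ZFP3ox when the ratio was 2-fold or more, in the same direction, in both sets. By that rule 31 genes were higher, which is 0.137% of the kept genes, and 41 were lower, which is 0.181%. The same ratios chose these 72 genes (0.318%), so their counts and values below are descriptions. The groups made of them by function were formed after their values were seen. Where a list below has no gene past the rule, that lies close to 0.318% and is no trait of the list. When each set was centred on its own median ratio, 22 of the 31 and 26 of the 41 still passed the rule, and GRP-3, MT2A, WAK2, CYP71A24 and AT2G40800 among the higher genes and XTH19, RHS19, TZP, BOB1, IPT2 and DRM3 among the lower ones did not. Each set alone placed far more genes past 2-fold, and in opposite balance. Set 1 had 1895 genes higher (8.37%) and 272 lower (1.2%), while set 2 had 242 higher (1.07%) and 2143 lower (9.46%). The 31 genes make up 1.64% of the higher genes of set 1, where 1.07% of all kept genes were higher in set 2. They make up 12.8% of the higher genes of set 2, where 8.37% of all kept genes were higher in set 1. The 41 genes make up 15.1% of the lower genes of set 1, against 9.46% of all kept genes lower in set 2. Of the lower genes of set 2 they make up 1.91%, against 1.2% lower in set 1. The overlap thus lay not far above the all-gene shares, and agreement of the sets is a weak check. A further 83 genes were 2-fold higher in set 1 and 2-fold lower in set 2, and 3 genes the other way round. Set 1 had a median ratio over the kept genes of 0.21 and set 2 of -0.20, and the ratios of the sets correlated across genes with Pearson's r of 0.015. Across the kept genes, both columns of a sample correlated with r of 0.640 for ZFP3ox and 0.561 for WT, below the 0.902 and 0.871 between the genotypes within sets 1 and 2. Genes are not independent replicates, and these r values only describe the columns.

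**Figure D1:**
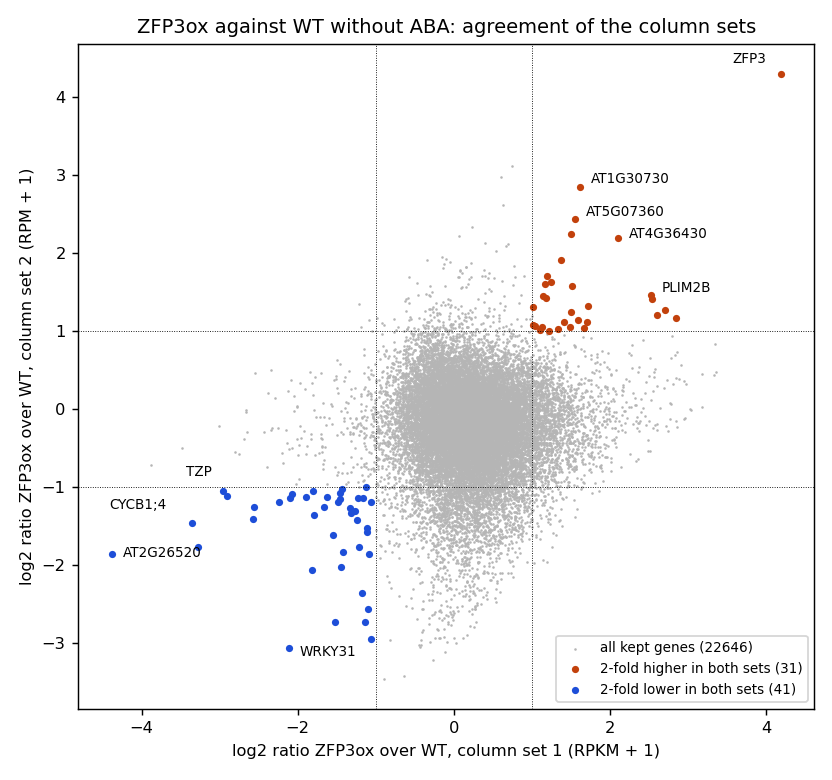
Log2 ratio of ZFP3ox over WT without ABA in column set 1 (x axis, RPKM + 1) against column set 2 (y axis, RPM + 1) for 22646 genes; dotted lines mark 2-fold. By the rule the 31 genes higher in both sets lie in the upper right corner, with ZFP3 farthest out (4.19 and 4.29). The 41 lower genes lie by the rule in the lower left corner. Other genes lie directly outside the dotted lines, in a cloud that leans to the right on the set 1 axis and downwards on the set 2 axis.

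ZFP3 (AT5G25160), the overexpressed gene, stood first in both sets. Its level was 176 RPKM in ZFP3ox seedlings against 8.66 RPKM in WT seedlings in set 1, and 40.8 RPM against 1.14 RPM in set 2. The WT level in set 1 lay a little under the median WT value of 10.45 RPKM, and the ZFP3ox level was 20.3 times the WT level in set 1 and 35.8 times in set 2, without a pseudocount. In set 2 the values rested on 387 reads in ZFP3ox and 16 in WT, with 95% Poisson intervals of 36.8 to 45.0 RPM and 0.650 to 1.85 RPM. These intervals, like all below, cover counting error only. Among 9 measured members of the same zinc finger subfamily, ZFP3 alone passed the rule. ZFP5, which acts in trichome and root hair formation, was the next highest at 0.90 and 0.34, and ZFP1 was the lowest, both by the weaker set, at -0.46 and -0.50. The list of 9 had medians of 0.66 and -0.21.

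Next to ZFP3 by the weaker of the sets stood the peroxidase gene AT4G36430 and AT1G30730. The peroxidase gene AT4G36430 had 19.7 RPKM and 9.37 RPM in ZFP3ox, against 3.82 RPKM and 1.28 RPM in WT. AT1G30730, which encodes an oxidase of the FAD-binding berberine family, had 16.8 RPKM and 15.4 RPM in ZFP3ox, against 4.80 RPKM and 1.28 RPM in WT. With ZFP3, these were the only higher genes past 3-fold in both sets by the ratio of (value + 1). Without the pseudocount other genes passed 3-fold too, such as GSTF2 (3.16 and 5.68 times). GSTF2 (AT4G02520), a glutathione transferase that conjugates glutathione to small molecules, had 17.2 RPKM and 21.8 RPM in ZFP3ox, against 5.43 RPKM and 3.84 RPM in WT. Log2 ratios were 2.104 and 2.185 for AT4G36430, 1.62 and 2.84 for AT1G30730, and 1.498 and 2.236 for GSTF2.

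Cytochrome P450 enzymes insert oxygen into fatty acids, hormones and defence compounds, and 3 of 231 measured P450 genes were higher and 0 lower, where 0.137% of all kept genes were higher. CYP86A1 (AT5G58860), a fatty acid hydroxylase of root suberin, had 31.6 RPKM and 8.95 RPM in ZFP3ox, against 3.98 RPKM and 3.13 RPM in WT. CYP706A1 (AT4G22690) had 17.0 RPKM and 15.7 RPM in ZFP3ox, against 6.59 RPKM and 4.40 RPM in WT. The remaining one, CYP71A24, had ratios of 1.03 and 1.06, and missed the rule when the sets were centred or scaled to their upper quartiles. The family as a whole had medians of 0.40 and -0.23, against 0.21 and -0.20 for all kept genes. Suberin is laid down in the endodermis, and of 8 measured endodermis genes none passed the rule, with medians of 0.17 and -0.72. Their summed level was 119 RPKM in ZFP3ox against 97.5 RPKM in WT, and 27.0 RPM against 47.7 RPM. In a whole seedling, fewer cells of a type and less RNA per cell cannot be told apart, and the part of cell makeup in any result here was not tested.

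Among 53 measured glutathione transferase genes GSTF2 alone passed, and the family's medians were 0.23 and 0.07. Of 59 class III peroxidase genes, which use hydrogen peroxide in the cell wall, 1 was higher (AT4G36430) and 1 lower (AT1G05250). The family's medians were 0.14 and -0.36. This list was made from gene names and product names and leaves out RHS19, a lower gene that also encodes a peroxidase and is described with the root hair genes below. By the authors' own annotation, response to oxidative stress was attached to 0 higher and 3 lower genes (AT1G05250, RHS19 and AT1G73120), and to 0.896% of all kept genes. Oxidation reduction was attached to 2 higher and 2 lower genes, and to 2.47% of all kept genes. AT1G05250 had 39.2 RPKM and 0.42 RPM in ZFP3ox, against 106 RPKM and 4.05 RPM in WT. Its set 2 values rested on 4 reads in ZFP3ox and 57 in WT, with intervals of 0.115 to 1.08 RPM and 3.07 to 5.25 RPM.

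AT5G07360, an amidase gene, had 29.0 RPKM and 35.7 RPM in ZFP3ox, against 9.22 RPKM and 5.82 RPM in WT. NUDT22 (AT2G33980), a nudix hydrolase that cleaves nucleoside diphosphates linked to another group, had 60.2 RPKM and 37.2 RPM in ZFP3ox, against 9.57 RPKM and 13.4 RPM in WT. AT3G03240, a gene of the alpha/beta-hydrolase family, had 12.3 RPKM and 31.0 RPM in ZFP3ox, against 4.13 RPKM and 7.53 RPM in WT. Both sets thus placed all 3 genes higher in ZFP3ox, by unequal amounts. Their log2 ratios were 1.55 and 2.43 for AT5G07360, 2.53 and 1.41 for NUDT22, and 1.38 and 1.91 for AT3G03240.

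RR24 (AT5G26594), a response regulator of the cytokinin phosphorelay type, had 11.9 RPKM and 20.11 RPM in ZFP3ox, against 2.91 RPKM and 7.46 RPM in WT. AT2G44370, with a cysteine and histidine-rich C1 domain, had 12.4 RPKM and 4.32 RPM in ZFP3ox, against 3.68 RPKM and 0.78 RPM in WT. AGL67 (AT1G77950), a MADS-box transcription factor gene, was among the most abundant of the 31 at 490 RPKM in ZFP3ox and 79.6 RPKM in WT, with ratios of 2.61 and 1.20. Only AT2G40800, an inner membrane translocase subunit gene, was more abundant, at 795 RPKM in ZFP3ox and 347 RPKM in WT, with ratios of 1.19 and 1.70. By the authors' own gene annotation, regulation of transcription was attached to 3 higher genes (ZFP3, AGL67, RR24) and 3 lower genes (WRKY31, TZP and the bHLH gene AT1G09250, at -2.097 and -1.14), and to 5.67% of all kept genes.

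PLIM2B (AT1G01780) encodes a LIM protein that bundles actin filaments in pollen. It had 128 RPKM and 18.3 RPM in ZFP3ox, against 21.3 RPKM and 6.04 RPM in WT, and ratios of 2.53 and 1.46. It was the only gene past the rule among 11 measured pollen genes. Of these 11, 8 were above 0 in both sets and 1 below, where 21.0% of all kept genes were above 0 in both, and the medians were 0.58 and 0.06, or 0.37 and 0.26 above those of all kept genes. Their summed level was 259 RPKM in ZFP3ox against 104 RPKM in WT, and 49.9 RPM against 34.0 RPM. PLIM2B, chosen by the rule from these same values, alone gave 128 and 21.3 RPKM of these sums, and 18.3 and 6.04 RPM, so most of the gap was its own. None of the 11 was listed at 0 in any column, but neither was any kept gene in the columns without ABA. The other 10 had at most 30.4 RPKM in ZFP3ox, where all features had a 5th percentile of 5.04 RPKM and a median of 13.1 RPKM. VGD1, a pollen pectin methylesterase gene, was the next highest by the weaker set, at 30.4 RPKM in ZFP3ox and 18.3 RPKM in WT (0.70 and 0.38). The part of pollen-type transcripts in the result was not tested.

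GRP-3 (AT2G05520), a small glycine-rich wall protein that binds the wall-associated kinase WAK1, had 125 RPKM and 26.1 RPM in ZFP3ox, against 55.0 RPKM and 7.95 RPM in WT. WAK2, a related kinase that spans the wall and the plasma membrane, had ratios of 1.02 and 1.07. The annotation of a response to salicylic acid was attached to both and to no lower gene, and to 0.481% of all kept genes. Also higher were ECS1 (1.58 and 1.14), the legume lectin gene AT3G16530 (1.66 and 1.04), the thionin-like gene AT1G25275 (1.33 and 1.02) and LCR33, a gene for a small cysteine-rich secreted peptide (1.41 and 1.11). MT2A, a metallothionein gene, had 58.1 RPKM in ZFP3ox and 25.9 RPKM in WT, with ratios of 1.14 and 1.45. AT2G18420, a gene of the gibberellin-regulated GASA family, had ratios of 1.71 and 1.12, while none of the 17 measured genes of gibberellin synthesis and signalling passed the rule.

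Several higher genes have no or little described function. AT2G25169, uncharacterized, had the largest set 1 ratio after ZFP3, with 57.7 RPKM and 5.69 RPM in ZFP3ox against 7.17 RPKM and 1.99 RPM in WT (2.84 and 1.16). AT4G10220 was the weakest of the 31 in level, with 5.26 RPKM and 2.21 RPM in ZFP3ox against 1.22 RPKM and 0.36 RPM in WT, where it rested on 5 reads in set 2. AT2G31690, another alpha/beta-hydrolase gene, had ratios of 1.18 and 1.42, the cornichon family gene AT4G12090 had 1.495 and 1.05, and AT5G66631, with tetratricopeptide repeats, had 1.13 and 1.05. MMZ1, a ubiquitin-conjugating enzyme variant of DNA repair, was well expressed at 64.9 RPKM in ZFP3ox and 31.8 RPKM in WT (1.01 and 1.30). At the edge of the rule, the last genes inside were the uncharacterized AT3G27250 (1.22 and 1.002) and NIP1 (1.10 and 1.005), a thylakoid protein gene whose product anchors a plastid RNA polymerase. The first outside were the pentatricopeptide repeat gene AT3G11460 (0.997 and 1.19) and the transporter gene AT5G14120 (0.97 and 1.15).

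**Figure D2:**
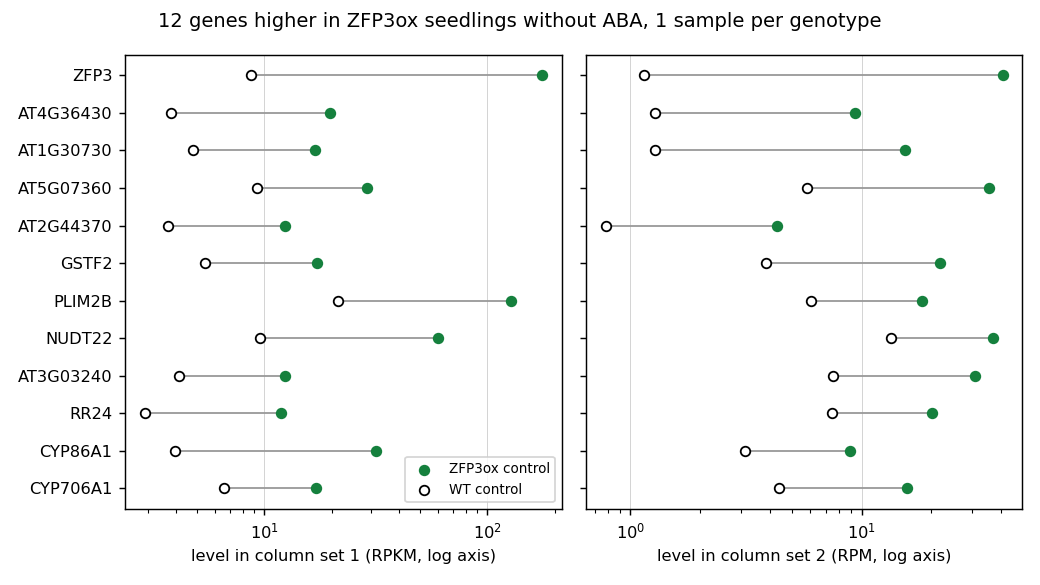
Levels of the 12 genes highest by the weaker of the 2 sets, in RPKM (column set 1, left) and RPM (column set 2, right) on log axes, with 1 sample per genotype; filled points are ZFP3ox, open points WT. ZFP3 shows the widest gap in each panel (176 against 8.66 RPKM and 40.8 against 1.14 RPM), and the next widest gap in set 2 is that of AT1G30730 (15.4 against 1.28 RPM).

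The lower genes were led by WRKY31 (AT4G22070), a transcription factor gene of the WRKY family. It had 11.4 RPKM and 5.16 RPM in ZFP3ox, against 52.8 RPKM and 50.6 RPM in WT, with ratios of -2.11 and -3.07. The set 2 values rested on 49 reads in ZFP3ox and 713 in WT, with intervals of 3.82 to 6.82 RPM and 47.0 to 54.5 RPM. No other of the 63 measured WRKY genes was lower, and none was higher. Of the 63, 22 were above 0 in both sets (34.9%) and 12, WRKY31 among them, below (19.0%), against 21.0% and 20.5% of all kept genes.

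AT2G26520, which encodes an uncharacterized protein, had the lowest ratio of the 72 genes in set 1. It had 48.7 RPKM and 2.42 RPM in ZFP3ox, against 1035 RPKM and 11.4 RPM in WT. The ratios were -4.38 and -1.85. BOB1 (AT5G53400), a small chaperone gene needed in embryos and for heat tolerance, also had a much larger gap in set 1. Its values were 51.2 RPKM and 3.48 RPM in ZFP3ox, against 390 RPKM and 8.74 RPM in WT, with ratios of -2.90 and -1.12. AT5G26260, a gene of the TRAF-like family, had 37.0 RPKM and 3.58 RPM in ZFP3ox, against 108 RPKM and 29.4 RPM in WT.

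CYCB1;4 (AT2G26760), a B-type cyclin that drives entry into mitosis, had 12.4 RPKM and 3.48 RPM in ZFP3ox, against 137 RPKM and 11.4 RPM in WT. It was the only one of 23 measured genes of mitosis and DNA replication past the rule. The neighbouring cyclin CYCB1;1 had 11.6 RPKM in ZFP3ox and 14.9 RPKM in WT (-0.34 and -0.30), and the list had medians of 0.07 and -0.32. RTFL9 (AT1G53708), one of the small ROTUNDIFOLIA-like peptides that limit cell proliferation when overproduced, had 15.9 RPKM and 1.16 RPM in ZFP3ox, against 98.9 RPKM and 4.76 RPM in WT. AT5G01850, a protein kinase gene, had 11.9 RPKM and 4.84 RPM in ZFP3ox, against 36.7 RPKM and 16.8 RPM in WT.

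XTH enzymes cut and rejoin xyloglucan chains as walls expand, and 3 of 26 measured XTH genes were lower and none higher, where 0.181% of all kept genes were lower. XTH12 missed the rule with a minimum value of 5, and XTH19 when the sets were centred or scaled to their upper quartiles, so 2 were left in each case. XTH12 (AT5G57530) had 23.5 RPKM and 0.74 RPM in ZFP3ox, against 84.0 RPKM and 3.48 RPM in WT. XTH14 (AT4G25820) had 45.8 RPKM and 1.16 RPM in ZFP3ox, against 108 RPKM and 6.39 RPM in WT. XTH19 (AT4G30290) had 43.4 RPKM and 1.90 RPM in ZFP3ox, against 98.6 RPKM and 5.40 RPM in WT. All 3 were lower in ZFP3ox by ratios of -1.14 to -1.79, but in set 2 they rested on 7, 11 and 18 reads in ZFP3ox against 49, 90 and 76 in WT. XTH17, a close relative of XTH19, missed the rule at -0.95 and -1.90. Across the 26 genes 14 were below 0 in both sets and 5 above, against 20.5% and 21.0% of all kept genes, with medians of -0.23 and -0.37, or -0.44 and -0.17 relative to all kept genes. XTH9 differed between the sets at -0.33 and 1.03, and XTH21 at 1.67 and -0.22. The family was taken up after its members had been seen among the lower genes, and its paralogs may share reads, since reads with up to 10 matches were used.

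RHS19 (AT5G67400), a peroxidase gene named for its root hair expression, had 21.9 RPKM and 1.47 RPM in ZFP3ox, against 61.0 RPKM and 4.05 RPM in WT. It was the only lower gene among 15 measured genes named root hair specific, a family also taken up after values were seen. Of the 15, 10 were below 0 in both sets (66.7%) and 1 above (6.67%), against 20.5% and 21.0% of all kept genes. Their medians were -0.08 and -0.69, or -0.29 and -0.49 relative to all kept genes. RHS13 had 30.3 RPKM and 0.42 RPM in ZFP3ox, against 57.8 RPKM and 2.63 RPM in WT (-0.91 and -1.35), and RHS16 differed mainly in set 2 (-0.12 and -2.82). In a separate list of 11 root hair genes none passed the rule, and the medians were -0.35 and -0.31. Of these 11, 5 were below 0 in both sets (45.5%) and none above, against the same shares of all kept genes. PRP1, a proline-rich wall protein gene, was the lowest of that list by the weaker set (-0.78 and -0.58). The summed level of the 11 was 136 RPKM in ZFP3ox against 179 RPKM in WT, and 49.7 RPM against 78.5 RPM. The list's part in the XTH and peroxidase values was not tested.

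AT1G62660, a glycosyl hydrolase of the invertase type, had 25.8 RPKM and 6.21 RPM in ZFP3ox, against 59.4 RPKM and 35.9 RPM in WT. The formin gene AT2G43800, which nucleates actin, had ratios of -1.23 and -1.14, and the secreted CAP protein gene AT5G57625 had -1.06 and -1.20. Of 12 genes of endosperm weakening and wall loosening none passed the rule, and by the weaker set EXPA3, an expansin gene, was lowest at 54.8 RPKM in ZFP3ox and 78.4 RPKM in WT (-0.51 and -1.05). That list had medians of -0.14 and -0.53. None of 90 pectin methylesterase genes or 22 tubulin genes passed the rule, with medians of 0.34 and -0.34 for pectin methylesterases and -0.30 and 0.03 for tubulins.

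RPT2 (AT2G30520), which acts with the blue light receptors phototropin in bending towards light, had 44.3 RPKM and 13.6 RPM in ZFP3ox, against 112 RPKM and 35.9 RPM in WT. Its ratios of -1.31 and -1.34 were among the closest between the sets. TZP (AT5G43630), a zinc knuckle protein of light-dependent growth, had 21.2 RPKM and 14.6 RPM in ZFP3ox, against 172 RPKM and 31.4 RPM in WT. COP13 (AT5G14250), a subunit gene of the COP9 signalosome that restrains light responses in the dark, had 46.9 RPKM and 4.63 RPM in ZFP3ox, against 100.5 RPKM and 19.4 RPM in WT. Another gene of the NPH3 family of RPT2, AT3G15570, lay just outside the rule at -0.996 and -1.55.

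None of the 20 measured genes of the light signalling list passed the rule. BBX24, a B-box factor of light signalling, was lowest by the weaker set, with 24.9 RPKM and 6.32 RPM in ZFP3ox against 51.7 RPKM and 11.5 RPM in WT (-1.02 and -0.77). HY5, the bZIP factor that promotes light-grown development, followed with 20.3 RPKM and 2.42 RPM in ZFP3ox against 32.8 RPKM and 5.04 RPM in WT. PIF3, a phytochrome-interacting factor, was at -0.52 and -0.45, PIF5 at -0.36 and -0.36, and the far-red receptor gene PHYA at -0.32 and -0.39. Across the list 10 genes were below 0 in both sets (50%) and 1 above (5%), against 20.5% and 21.0% of all kept genes. The 1 above was GLK1, a factor for chloroplast genes (0.20 and 0.24). The list's medians were -0.21 and -0.25. Taken against the median of all genes these became -0.42 in set 1 and -0.05 in set 2, and with upper quartile scaling the set 2 median turned to 0.03, so the set 2 values sat at the level of genes in general. Against the all-gene medians 8 of the 20 genes were below in both sets (40%) and none above. Of all kept genes 23.8% were on each side.

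Among the 22 measured photosynthesis genes, targets of light signalling, none passed the rule, and the medians were 0.42 and -0.11. CAB1, an antenna protein gene of photosystem II, had 1894 RPKM and 743 RPM in ZFP3ox, against 1267 RPKM and 495 RPM in WT, a ratio of 0.58 in both sets. CAB1 shares reads with close paralogs, so its own level is uncertain.

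AT3G01060, annotated as a lysine-tRNA ligase, had 11.1 RPKM and 5.27 RPM in ZFP3ox, against 116 RPKM and 20.3 RPM in WT (-3.27 and -1.76). AT3G07760, with a sterile alpha motif, had 28.8 RPKM and 3.79 RPM in ZFP3ox, against 104 RPKM and 19.0 RPM in WT. AT5G50650, a WD40 repeat gene, was much lower in level, with 1.98 RPKM and 1.58 RPM in ZFP3ox against 7.08 RPKM and 9.52 RPM in WT. The nucleoporin gene SAR1, which acts in mRNA export and auxin response, had 18.9 RPKM and 15.7 RPM in ZFP3ox, against 40.4 RPKM and 128 RPM in WT (-1.06 and -2.95). Also lower were the polyribonucleotide nucleotidyltransferase gene AT5G14580 (-1.48 and -1.19), the tRNA isopentenyltransferase gene IPT2 (-1.80 and -1.05), the methionine aminopeptidase gene MAP2A (-1.63 and -1.13) and DRM3, a partner in RNA-directed DNA methylation (-2.24 and -1.20). AT2G45750, a methyltransferase gene, was at -1.11 and -1.58.

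Of the other lower genes, PP2-A12 (a phloem protein of the lectin type) and AT1G61450 differed most in set 2. PP2-A12 had 9.40 RPKM and 1.58 RPM in ZFP3ox, against 21.3 RPKM and 14.2 RPM in WT, and AT1G61450 had 21.4 RPKM and 1.26 RPM in ZFP3ox, against 48.1 RPKM and 14.1 RPM in WT. AT4G19160, annotated as a transglutaminase, had 17.3 RPKM and 15.3 RPM in ZFP3ox, against 42.1 RPKM and 42.6 RPM in WT. AT1G21280, a retrotransposon-type gene, was at -1.33 and -1.27, and the F-box genes AT1G73120 and AT5G51000 were at -1.12 and -1.53 and at -1.45 and -1.15. The cystatin-type gene AT4G03565 had -2.56 and -1.26, and the C1 domain gene AT1G29179 had -1.26 and -1.31. The uncharacterized AT1G73470, AT5G60840, AT1G77160 and AT4G03165 were lower by ratios of -1.08 to -2.07, and AT4G03165 rested on 2 reads in ZFP3ox and 22 in WT in set 2. The last inside the rule were AT4G22666 (-1.13 and -1.004) and RHS19 (-1.44 and -1.03), and the first outside was the pectin lyase-like gene AT1G80170 (-0.999 and -1.06).

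**Figure D3:**
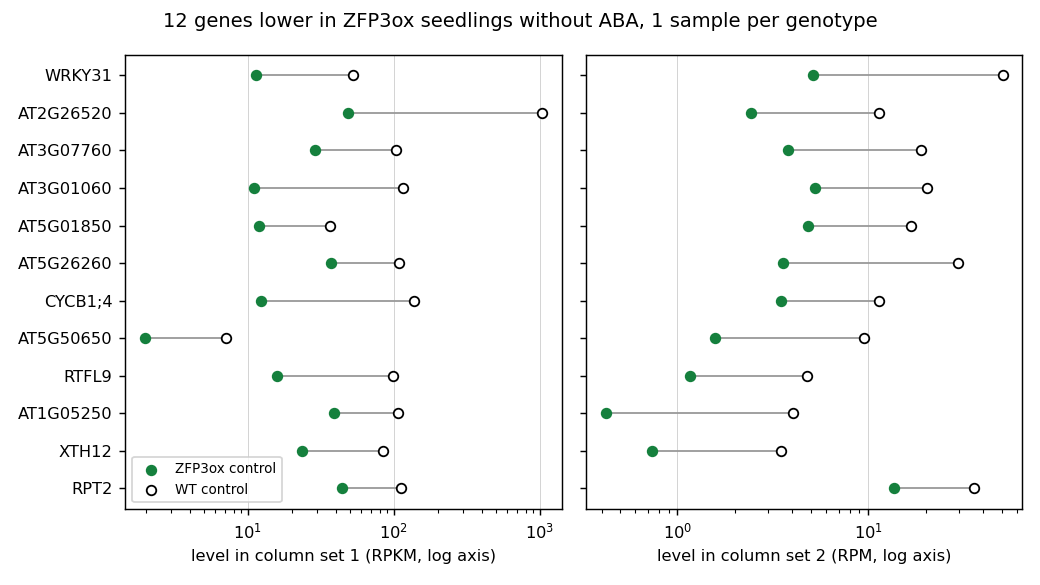
Levels of the 12 genes lowest by the weaker of the 2 sets, in RPKM (column set 1, left) and RPM (column set 2, right) on log axes, with 1 sample per genotype; filled points are ZFP3ox, open points WT. AT2G26520 shows the widest gap in set 1 (48.7 against 1035 RPKM), and AT1G05250 and XTH12 sit below 1 RPM in ZFP3ox in set 2.

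The 31 higher genes had a median exon length of 1237 bases, against 1535 bases for the 41 lower genes and 1683 bases for all kept genes with a length in the TAIR10.1 annotation. In set 2 the higher genes had 21 to 540 reads in ZFP3ox and 5 to 392 in WT, and the lower genes had 2 to 149 in ZFP3ox and 22 to 1796 in WT. The members lay on all 5 chromosomes. The kept genes were split into 3 bins of nearly equal size by their mean log2 set 1 level over all 4 samples. The lowest bin of 7548 genes held 16 higher and 3 lower genes. In the highest bin of 7549 genes were 11 higher and 30 lower genes. The median ratio of all genes in these bins also moved with level, at 0.40 in set 1 and -0.27 in set 2 in the lowest bin and -0.04 and -0.07 in the highest. The 5th percentile of all features was 5.04 RPKM in ZFP3ox and 3.40 RPKM in WT in set 1, and 0.42 RPM and 0.57 RPM in set 2. Several higher genes had WT values near it in set 1, such as AT4G36430 (3.82 RPKM) and RR24 (2.91 RPKM). Their set 1 ratios rest on such low values, and the effect of this on the ratios was not tested.

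In the reserve mobilisation list, enzymes that turn stored oil into sugar, none of 13 measured genes passed the rule. MLS, malate synthase of the glyoxylate cycle, had 745 RPKM and 19.0 RPM in ZFP3ox, against 1265 RPKM and 38.4 RPM in WT (-0.76 and -0.98). ICL, isocitrate lyase of the same cycle, had 2447 RPKM in ZFP3ox and 4453 RPKM in WT but 196 RPM and 189 RPM in set 2, so the sets differed. PCK1, which starts the path from oil to sugar in the cytosol, was lower in set 1 at -0.62 and higher in set 2 at 1.38. Of the 13 genes 7 were below 0 in both sets (53.8%) and none above, against 20.5% and 21.0% of all kept genes. The list's medians were -0.40 and -0.23. Against the median of all genes these were -0.61 and -0.03, and with upper quartile scaling the set 2 median turned to 0.08. By the all-gene medians 6 of the 13 were below in both sets (46.2%) and none above, where 23.8% of all kept genes were on each side.

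Of 25 measured genes of ABA perception and signalling none passed the rule, where 0.318% of all kept genes did. The medians were -0.12 and -0.09. Of the 25, 8 were below 0 in both sets (32%) and 4 above (16%), against 20.5% and 21.0% of all kept genes. By the weaker set the receptor gene PYL7 was lowest (-0.61 and -0.77) and the phosphatase gene HAI3 highest (0.30 and 0.36), with the bZIP factor gene ABF1 at -0.42 and -1.24. None of 13 ABA-responsive genes passed, and members lay on both sides, with 4 below 0 in both sets (30.8%) and 2 above (15.4%). By the weaker set the dehydrin gene COR47 was lowest at 45.6 RPKM and 3.26 RPM in ZFP3ox against 81.6 RPKM and 13.0 RPM in WT (-0.83 and -1.72). ADH1, alcohol dehydrogenase, was highest at 23.8 RPKM and 10.9 RPM in ZFP3ox against 17.8 RPKM and 2.63 RPM in WT (0.40 and 1.71). That list had medians of -0.07 and -0.09. The 12 seed storage and oil body genes had no member past the rule, with medians of 0.20 and -0.40. The gibberellin list had medians of 0.52 and -0.34, with the receptor gene GID1A highest by the weaker set at 0.52 and 1.28. In the flavonoid and phenylpropanoid list of 15 genes the medians were 0.20 and -0.05, and DFR, an enzyme of anthocyanin synthesis, was highest by the weaker set at 14.5 RPKM and 6.32 RPM in ZFP3ox against 9.35 RPKM and 2.27 RPM in WT (0.58 and 1.16). No member of either passed.

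None of the 6 xylem, 6 stomatal lineage and 5 root meristem genes passed the rule, where 0.318% of all kept genes did. Their medians were 0.32 and -0.29 for xylem, 0.32 and -0.71 for the stomatal lineage, and 0.44 and 0.04 for the root meristem. Of the large families, none of 118 MYB, 74 NAC and 95 histone genes passed, with medians of 0.40 and -0.30 for MYB, 0.33 and -0.21 for NAC, and 0.08 and -0.14 for histones. Nearly all of these medians carry the sign of the all-gene median in their set.

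**Figure D4:**
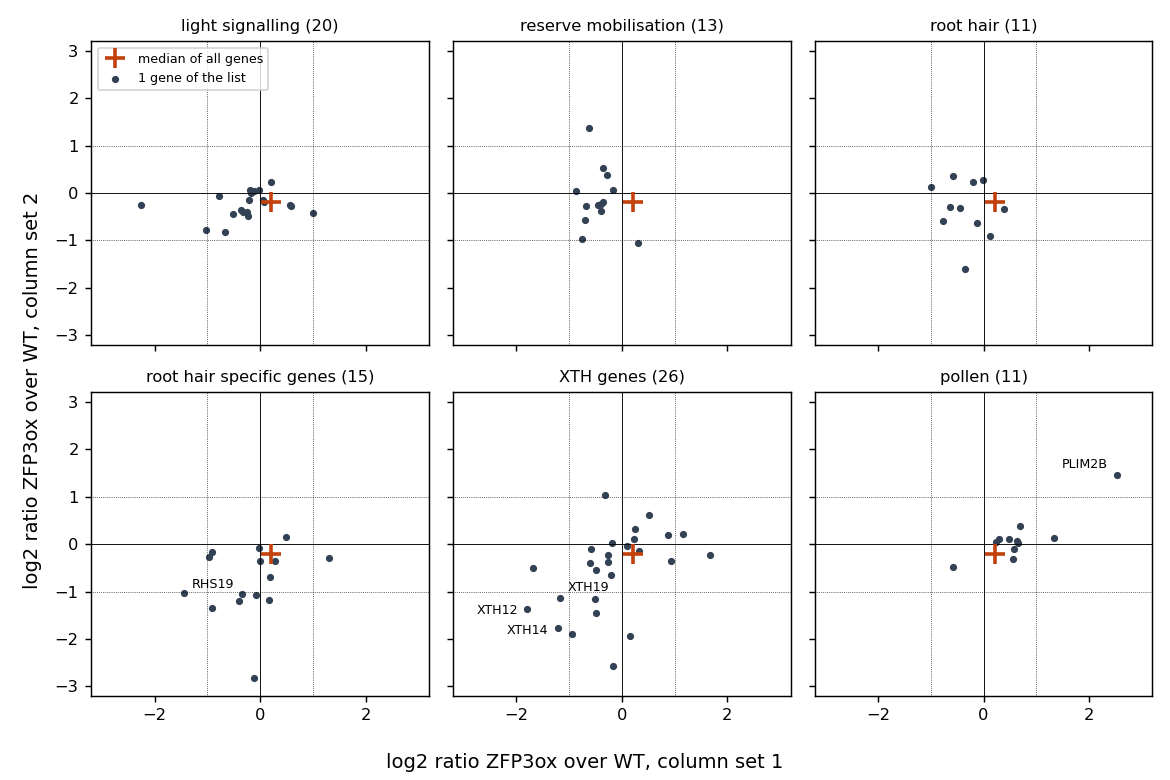
Log2 ratio of ZFP3ox over WT without ABA in column set 1 (x axis) against column set 2 (y axis) for the genes of 6 lists, 1 point per gene; the cross marks the median of all kept genes (0.21 and -0.20) and dotted lines mark 2-fold. The XTH and root hair specific genes spread into the lower left, where XTH12, XTH14, XTH19 and RHS19 pass the rule, most light signalling and reserve mobilisation genes lie left of the cross, with exceptions such as SOM (0.58) and LACS7 (0.30), and the pollen genes lie above or right of it, except PLIM2C (-0.57 and -0.48), with PLIM2B far out.

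The samples with ABA offered the same genotype contrast in other plants. Of the 31 genes, 2 were also 2-fold higher in both sets with ABA (6.45%, against 0.631% of all kept genes), and of the 41 genes 2 were also lower (4.88%, against 0.503%). The first pair was ZFP3 itself, which is overexpressed in both ZFP3ox samples by design, and GRP-3. The 6.45% therefore counts the overexpressed gene. GRP-3 had 49.5 RPKM and 4.64 RPM in ZFP3ox with ABA, against 13.3 RPKM and 1.66 RPM in WT with ABA. Without ABA it missed the rule when the sets were centred. The second pair was AT2G26520 and AT5G26260. AT2G26520 had 100.2 RPKM and 12.2 RPM in ZFP3ox with ABA, against 2680 RPKM and 36.9 RPM in WT with ABA. AT5G26260 had 25.1 RPKM and 1.31 RPM in ZFP3ox with ABA, against 67.2 RPKM and 11.1 RPM in WT with ABA. Thus GRP-3, AT2G26520 and AT5G26260 differed between the genotypes in the same direction in all 4 ratios. BOB1 and IPT2 were also lower in set 1 with ABA (-3.81 and -3.11) but missed the rule in set 2 (-0.67 and -0.94). PLIM2B was above 0 in both sets with ABA (0.87 and 0.73), as was AT4G36430 (0.78 and 1.26).

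The median genotype ratio with ABA was 0.52 and 0.05 over the 31 genes and -0.02 and -0.13 over the 41 genes, where all kept genes had 0.14 and -0.03. Of the 31 genes 15, the overexpressed ZFP3 among them, kept their sign in both sets and 3 had the opposite sign in both. Of the 41 genes 15 and 5 did. The same shares were not taken over all kept genes with ABA, so these counts only describe the members. WRKY31 had 14.7 RPKM and 18.4 RPM in ZFP3ox with ABA, against 7.39 RPKM and 12.5 RPM in WT with ABA, so it was not lower there. XTH14 had 10.5 RPKM and 1.01 RPM in ZFP3ox with ABA, against 12.1 RPKM and 1.10 RPM in WT with ABA. RPT2 had 24.3 RPKM in both genotypes with ABA.

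For most lower genes the WT sample without ABA stood above the other 3 samples. In 32 of the 41 genes (78.0%) it was the highest of the 4 samples in both sets. The rule itself placed it above ZFP3ox without ABA, and placed the 2 samples the other way round in the 31 higher genes, so these counts describe the chosen genes and are not set against genes in general. These 32 included WRKY31, all 3 XTH genes, AT1G05250, RHS19, RPT2, TZP and COP13. ABA and the later harvest go together in the other samples and cannot be told apart. Among the 31 higher genes the ZFP3ox sample without ABA was the highest of 4 in 13 (41.9%), among them AT4G36430, AT1G30730, CYP86A1 and GRP-3. In 16 of the 31 (51.6%) the WT sample without ABA was the lowest of 4, among them PLIM2B, NUDT22, AGL67 and RR24. For PLIM2B, NUDT22 and AGL67 the highest sample was ZFP3ox with ABA.

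**Figure D5:**
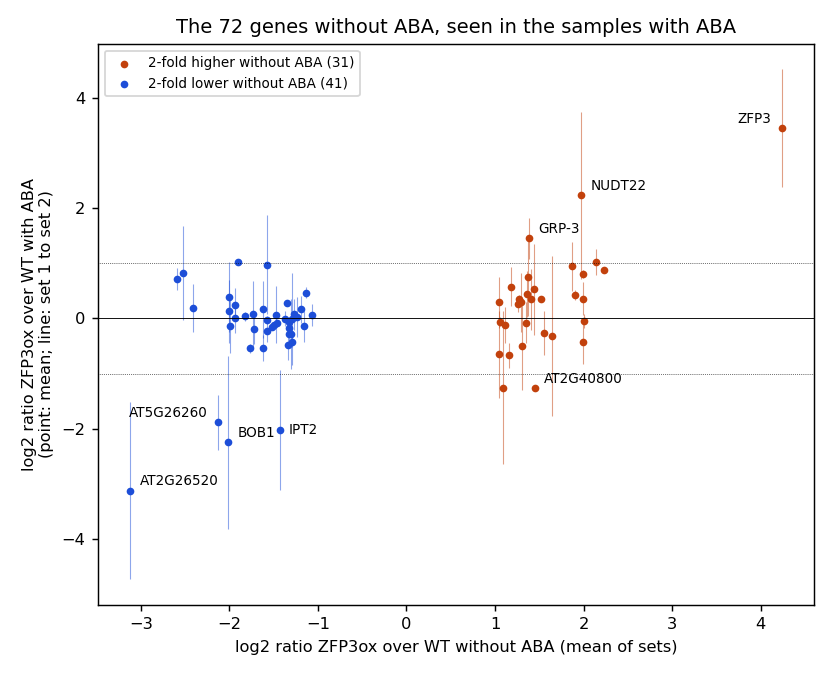
Genotype log2 ratio (ZFP3ox over WT) without ABA, mean of both sets (x axis), against the same ratio with ABA (y axis, point at the mean and line between set 1 and set 2) for the 72 genes. ZFP3 and GRP-3 keep a 2-fold difference at the upper right and AT2G26520 and AT5G26260 at the lower left, AT2G40800 lies on the opposite side, and the lines of NUDT22, BOB1 and IPT2 show sets that lie far apart.

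The authors' deposited tables of genes called higher and lower without ABA hold 225 and 165 genes, and include all 31 and all 41 genes described here, which are 13.8% and 24.8% of those tables. Those tables report the same samples, so this inclusion is not independent support. In the authors' table of higher genes the lowest ratio without a pseudocount was 1.90 in each set. The tables are longer than the lists described here. Without a pseudocount 117 kept genes were 2-fold higher in both sets (0.517%) and 89 lower (0.393%), and 76 of the 225 and 23 of the 165 did not reach a value of 1 in both columns of any sample. The genes of the authors' table of higher genes had a median of 1.26 RPM in ZFP3ox and 0.50 RPM in WT in set 2. HY5 is listed in the authors' deposited table of lower genes with a fold of -1.82, a signed score in which negative values stand for the inverse of a ratio below 1.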

How the data were processed

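RNA-seq of 4 samples was used, 2 of them for the main comparison. The deposited settings, per the authors, allowed 2 mismatches in colour space and up to 10 matches per read, with strand. For program, version and genome build: not given in the sources used here. The authors' values in column set 1 are RPKM. Those deposited in column set 2 are RPM (whole reads divided by 1 factor per column, within 0.0051 RPM of a whole multiple), although the settings name RPKM and RPKM had been assumed for both sets. The authors' lists give a fold score.

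Log2 ratios of (value + 1) were taken within a set with pandas 2.3.3 and numpy 2.4.6. Names and exon lengths came from TAIR10.1, with 23439 features matched by locus code, 83 by symbol, 253 by position and 157 unmatched. The rule was also run on simulated counts with the same changes planted in both sets. That run cannot show how the rule behaves where the sets disagree, as they do here. Whole reads of set 2 were also fitted with edgeR 4.0.16 in R 4.3.3. Genes with full values were ZFP3, the 12 highest and 12 lowest by the weaker set, and those past the rule with ABA. From each list, the members past the rule or else the extreme ones were named. The genes and lists were chosen with earlier results of these data known. Gene sequences were not used here.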

Additional observations from a re-analysis of the deposited data

Results flagged for a closer look

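AT2G40800, an inner membrane translocase subunit gene, drew attention because its genotype difference turned round between the treatments. Without ABA it had 795 RPKM and 29.7 RPM in ZFP3ox, against 347 RPKM and 8.45 RPM in WT, with log2 ratios of 1.19 and 1.70. With ABA it had 39.8 RPKM and 3.93 RPM in ZFP3ox, against 98.4 RPKM and 10.7 RPM in WT, with ratios of -1.283 and -1.24. It was the only one of the 72 genes past 2-fold in both sets in opposite directions. The difference between the treatments was not tested, since each group has 1 sample.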

How the results depend on the processing

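The main counts were 31 higher and 41 lower genes, a ZFP3 ratio of 4.239 as the mean of the sets, and 2 and 2 genes past the rule with ABA too. A pseudocount of 0 gave 117, 89, 4.751, 5 and 7 in the same order, and 0.1 gave 96, 81, 4.684, 2 and 7. All 31 and 41 genes were among these. A pseudocount of 5 gave 12, 11, 3.311, 1 and 2, because low genes shrink. With each set centred on its median the counts were 36 and 52, of which 22 and 26 were among the main genes, and 1 higher gene with ABA. GRP-3, XTH19, RHS19, TZP, BOB1 and IPT2 then missed the rule. Upper quartile scaling gave 49 higher and 30 lower genes, of which 28 and 23 were among the main genes. Set 1 alone gave 1895, 272, 4.192, 272 and 26, set 2 alone 242, 2143, 4.286, 29 and 148, and the mean of the sets 216 and 357 genes, 20 and 17 of them with ABA too. A limit of 1.5-fold gave 245 and 278 genes, 13 and 24 with ABA too, and of 3-fold 3 and 4 genes, 1 and 0 with ABA too. The filters tried changed the counts at most to 26 and 30, with a minimum of 5, where XTH12, RHS19, RTFL9 and AT1G05250 missed the rule.

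Chosen after seeing the data, a pseudocount of 0 with the minimum set in 1 of the 2 samples compared gave 104 and 84 genes, 5 and 6 with ABA too, and with centring 128, 117, 4.769, 4 and 4. edgeR's quasi-likelihood test on the whole reads of set 2, for the genotype effect over both treatments, called 1 gene of 22043 higher, ZFP3 (log2 5.469, adjusted p 0.0107), and 0 lower, with 1489 genes at an unadjusted p under 0.05. That fit has 1 residual degree of freedom, so it measures departure from additivity and not the spread of a group. No paired analysis was possible because each group has 1 sample, and its 2 columns, already compared set by set, count as 1 replicate. Leaving out a sample was not possible for the same reason.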
